A study of Mus musculus with 9 samples.

Results

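Gene expression was compared between Hbxip knockout (KO) and wild-type (WT) mouse embryonic stem cells (ESCs) after withdrawal of leukaemia inhibitory factor (LIF), the cytokine that holds mouse ESCs in self-renewal. The comparison rests on the 3 libraries whose titles place them on day 4, after 96 h without LIF: 1 WT library and 2 KO libraries, out of 9 libraries in the series. All 9 came from E14 cells, an ESC line of strain 129, with the genotype given as wild type or as Hbxip-/-. The other 6 libraries hold the same genotypes in pluripotent culture (1 WT, 2 KO) and as embryoid bodies, the aggregates in which ESCs begin to differentiate (1 WT, 2 KO). They are used here to set the spread between libraries and to ask where the response after LIF withdrawal differed. Whether the KO libraries are separate cultures or clones is not given in the labels. The p-values therefore measure only how far these libraries spread, which may be technical. The lone WT library was assumed to vary as the KO pairs do.

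Hbxip, now named Lamtor5, encodes a subunit of Ragulator, the scaffold that anchors the Rag GTPases to the lysosome surface and so lets mTORC1, the kinase that promotes protein, lipid and nucleotide synthesis, respond to amino acids. The Rag GTPases, together with folliculin, also govern whether the transcription factors TFEB and TFE3 stay in the cytoplasm or enter the nucleus to switch on lysosomal genes. In mouse ESCs, LIF acts through its receptor, JAK kinases and STAT3 to keep naive pluripotency genes on. When LIF is removed, these genes are shut down, genes of the formative and primed epiblast come up, and WNT, Nodal, FGF and BMP signals direct cells toward the primitive streak and the germ layers.

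Rounded counts summed to 10620819 in WT, 10768222 in KO replicate 1 and 10863866 in KO replicate 2, so depth was nearly equal. The KO libraries resembled each other closely, with 49 genes at least 2-fold apart, against 1691 between WT and KO replicate 1 and 1458 between WT and KO replicate 2. Levels are given as FPKM, which scales by gene length and depth. Differences are log2 fold changes of KO over WT, ± SE, from edgeR's quasi-likelihood test on counts, with p-values adjusted by Benjamini-Hochberg over 13990 genes. A gene was called higher or lower where the adjusted p lay under 0.05 and both KO libraries lay on the same side of WT. Gene lists are described by the number of members called and by the median log2 fold change of those tested, which was 0 over all genes. Counts of members called are to be read beside the shares over all genes tested, 18.4% higher and 17.4% lower.

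Hbxip itself, the targeted gene, was at 38.5 FPKM in WT, 16.2 in KO replicate 1 and 15.5 in KO replicate 2. Both KO libraries were well below WT, with a log2 fold change of -1.22 ± 0.16 (adjusted p = 7.5e-05), but reads of the gene remained. The tables give 1 value per gene, so which part of the gene these reads come from was not analysed here. In pluripotent culture the gene was at 40.7 FPKM in WT and at 31.0 and 29.1 in KO, a difference that was not called. Of 9 other Ragulator and Rag genes tested, 1 was higher (11.1%) and 2 were lower (22.2%), with a median of -0.04. These shares lay near those over all genes tested, 18.4% higher and 17.4% lower. Rragc, a Rag GTPase, rose from 18.9 FPKM to 29.5 and 28.5 (0.68 ± 0.12). Rragd, its close relative, fell from 15.1 to 9.85 and 9.98 (-0.54 ± 0.10). Slc38a9, the lysosomal arginine sensor that works with Ragulator, fell from 3.08 to 1.25 and 1.33 (-1.20 ± 0.17). The scaffold subunit Lamtor1, at 105 FPKM in WT and 113 and 105 in KO, was not called.

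Across all genes, 5010 of 13990 were called, 35.8% of those tested. Of these, 2569 (18.4%) were higher and 2441 (17.4%) were lower in KO. The lower genes moved further: the median was 0.65 among genes called higher and -0.89 among those called lower, and changes of at least 2-fold were found in 715 higher genes (5.11%) and 1089 lower genes (7.78%). The plot of KO against WT levels shows this asymmetry, with the widest departures among genes well detected in WT and nearly absent in KO.

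**Figure D1:**
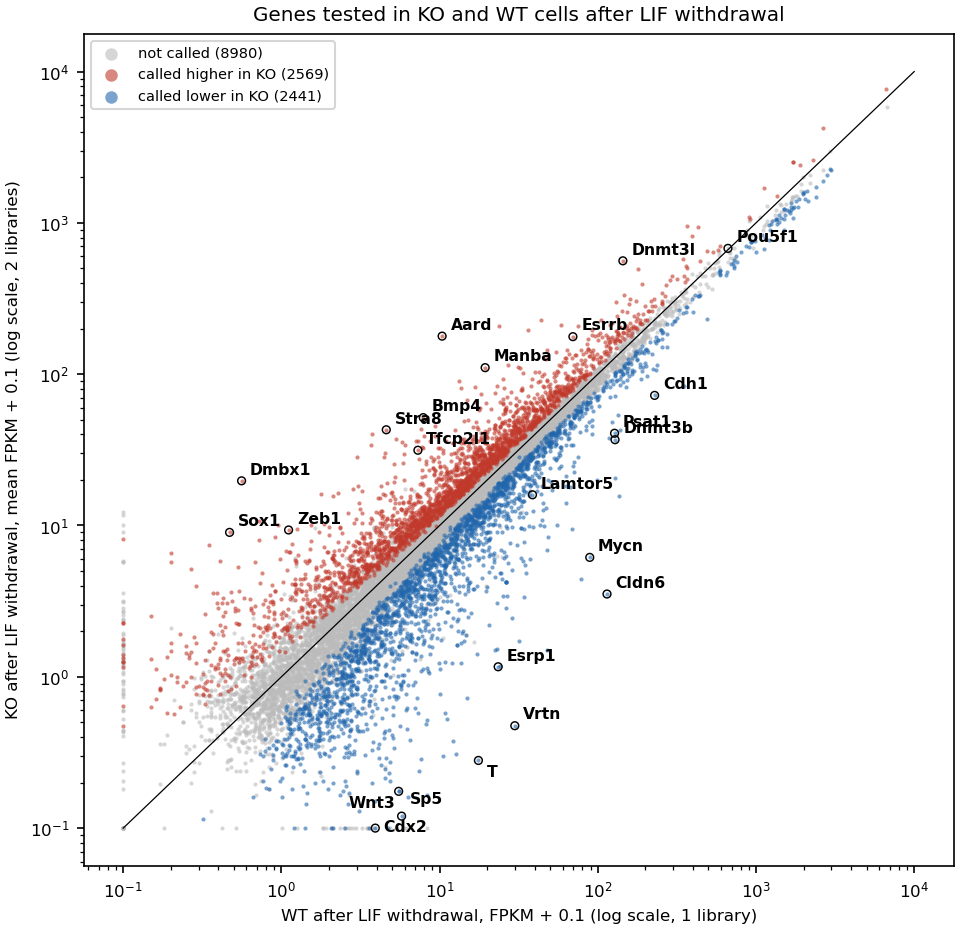
Level of each of the 13990 tested genes in WT (x axis, 1 library) and in KO (y axis, mean of 2 libraries) after LIF withdrawal, in FPKM + 0.1 on log scales, with genes called higher in red, called lower in blue and the others in grey. The line marks equal levels. Cdx2, Sp5, Wnt3 and T lie far below it, and Sox1, Dmbx1 and Aard far above it.

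The 14 deepest falls, taken among genes with an established symbol (clone names and predicted genes were left out), included several regulators of the primitive streak. Cdx2, a caudal homeobox factor of posterior streak and trophoblast, was at 3.82 FPKM in WT, from 87 counts, and had no count in either KO library, which makes it at least 59.1-fold lower against 3 counts over the KO group. Sp5, a direct WNT target, had 126 counts in WT and 0 and 1 in KO, a ratio of 0.00390 (95% counting interval 9.79e-05 to 0.0221). Evx1, a homeobox gene of the late streak, had 92 counts in WT and 1 in each KO library, a ratio of 0.0107 (0.00127 to 0.0397). In each of these genes WT was the only library with an appreciable level. Wnt3, the ligand that starts streak formation, fell from 5.41 FPKM to 0.06 and 0.09 (-6.06 ± 0.47). T, or brachyury, fell from 17.5 to 0.18 and 0.18 (-6.49 ± 0.30, adjusted p = 3.8e-08). Vrtn, a gene of vertebral patterning, fell from 29.8 to 0.24 and 0.51 (-6.25 ± 0.31), and Msx1, a BMP-responsive homeobox gene, from 7.32 to 0.14 and 0.14 (-5.55 ± 0.44). The muscle actins were in the same group: Acta1 had 129 counts in WT and 0 and 2 in KO, a ratio of 0.00761 (0.000912 to 0.0281), and Actc1 had 95 in WT and 1 in each KO library, a ratio of 0.0103 (0.00123 to 0.0384). Fndc3c1 fell from 12.7 FPKM to 0.19 and 0.23 (-5.85 ± 0.22). The remaining 4 were Rem2, a small GTPase, Lypd2, H2ac7, a histone H2A gene, and Rsc1a1. Rem2 was at 5.45 FPKM in WT and 0.05 and 0.10 in KO. H2ac7, with no count in KO, was at least 17.0-fold lower and Lypd2 at least 12.2-fold lower; DESeq2 did not call H2ac7 (adjusted p = 0.466). Rsc1a1 had 87 counts in WT and 0 and 2 in KO.

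Of the 14 largest rises among genes with an established symbol, 13 began from WT levels under 1 FPKM, Aard being the exception. Dmbx1, a paired-type homeobox gene of the developing midbrain, rose from 0.46 FPKM to 22.3 and 17.0 (5.47 ± 0.27, adjusted p = 5.8e-08). Sox1, the earliest neuroectoderm SOX factor, rose from 0.37 to 8.99 and 8.82 (4.64 ± 0.34). Aard was the most abundant of them, at 10.3 FPKM in WT and 194 and 163 in KO (4.18 ± 0.18). All 3 genes were higher in both KO libraries by a margin far beyond the difference between those libraries. Ankrd33b rose from 0.31 to 6.59 and 4.79 (4.24 ± 0.29), Emp1, a tetraspan membrane protein, from 0.62 to 12.7 and 8.62 (4.15 ± 0.36), and Slfn3 from 0.19 to 3.43 and 4.33 (4.25 ± 0.46). Others had at most 3 counts in WT and are given as count ratios. Magea4, a cancer-testis gene, had 1 count in WT and 72 and 57 in KO, a ratio of 63.3 (95% counting interval 11.2 to 2521). Cd99 had 1 in WT and 57 in each KO library, a ratio of 56.0 (9.85 to 2230), and Wdr20rt 1 in WT and 55 and 61 in KO, a ratio of 57.0 (10.0222 to 2269). For Dgkeos the ratio was 29.0 (7.84 to 242) and for the bicarbonate transporter gene Slc4a9 it was 17.0 (5.67 to 83.9). With no count in WT, Ptprcap and Fthl17c were each at least 6.38-fold higher and the lens crystallin gene Cryge at least 3.76-fold higher. Fthl17c belongs to a family of near-identical copies whose reads may be shared, so its value is uncertain, and its call was lost in 3 settings: without KO replicate 1 after LIF withdrawal (adjusted p = 0.053), and in limma on log2(FPKM + 1) (0.081) and on quantile-normalized values (0.056).

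Naive pluripotency genes were mostly higher in KO. Of 19 tested, 11 were higher and 2 lower, with a median of 0.87. For the examples that follow, the level in WT pluripotent culture is given beside the values where it helps to place them. Tfcp2l1, a STAT3 target that sustains self-renewal, was at 7.19 FPKM in WT after LIF withdrawal and at 33.2 and 29.5 in KO (2.18 ± 0.11, adjusted p = 9.2e-08), beside 34.1 in WT pluripotent culture. Esrrb, an orphan nuclear receptor of the naive network, was at 69.5 in WT and 182 and 172 in KO (1.41 ± 0.10), beside 186 in pluripotent WT. Klf4, a Krüppel-like factor directly downstream of STAT3, was at 21.1 in WT and 60.3 and 58.0 in KO (1.55 ± 0.13), against 155 in pluripotent WT. The KO levels of Tfcp2l1 and Esrrb were thus close to those of undifferentiated WT cells, while those of Klf4 were not. Klf5 rose from 45.9 to 102 and 98.5 (1.19 ± 0.09), Tbx3, a T-box factor of the same network, from 37.5 to 81.8 and 85.1 (1.21 ± 0.09), and Tcl1, an AKT cofactor, from 25.3 to 81.7 and 79.3 (1.74 ± 0.10). Pecam1, a surface marker of naive ESCs, rose from 14.1 to 33.0 and 36.9 (1.36 ± 0.11). Nr0b1 and Zfp42, chosen after their values were seen, rose by 1.42 ± 0.14 and 0.87 ± 0.09. Klf2, a further Krüppel-like factor, was at 201 in WT and 203 and 182 in KO and was not called, nor was Tdgf1, a Nodal co-receptor, at 454 in WT and 412 and 480 in KO.

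The core factors were much less affected. Pou5f1, which encodes OCT4, was at 665 FPKM in WT and 709 and 648 in KO, on either side of WT, and was not called. Sox2 rose slightly, from 192 to 236 and 267 (0.45 ± 0.09). Nanog, chosen after its values were seen, was at 215 in WT and 164 and 164 in KO. Its call (-0.33 ± 0.12, adjusted p = 0.047) was lost in 8 of the alternative settings, with adjusted p up to 0.123 without KO replicate 2 after LIF withdrawal. Of 13 general pluripotency genes, 7 were higher and 2 lower, with a median of 0.30. L1td1, an RNA-binding protein of ESCs, rose from 156 to 298 and 281 (0.95 ± 0.10). Lin28b, a let-7 inhibitor, fell from 9.29 to 2.51 and 3.48 (-1.57 ± 0.17), whereas its paralogue Lin28a was at 116 in WT and 99.7 and 95.1 in KO and was not called. The widest change here was in Dnmt3l, taken up with the DNA methyltransferases.

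Components and targets of the LIF pathway itself were split. Of 18 tested, 11 were higher and 3 lower, with a median of 0.61; Klf4 and Tfcp2l1 are counted here too. The receptor gene Lifr rose from 5.81 FPKM to 13.9 and 14.3 (1.47 ± 0.11, adjusted p = 8.3e-07). Among STAT3 targets, Pim1, a survival kinase, rose from 45.3 to 81.9 and 82.4 (0.92 ± 0.09) and Socs2, a feedback inhibitor of cytokine signalling, from 24.6 to 50.1 and 43.3 (0.98 ± 0.11). Stat3 was at 8.48 in WT and 8.49 and 8.94 in KO and was not called. Junb, an immediate early AP-1 gene, went the other way, from 21.9 to 6.33 and 5.57 (-1.82 ± 0.14). All 3 members that fell were immediate early genes: besides Junb these were Fos and Egr1, named after their values were seen.

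Formative and primed epiblast genes were the counterpart. Of 15 tested, 9 were lower and 1 higher, with a median of -1.39. The list was already lower in pluripotent KO cells, with 10 lower, 2 higher and a median of -1.65. Tested between these cultures, 8 members had the higher difference after LIF withdrawal and 4 the lower. Fgf5, the usual marker of the post-implantation epiblast, was at 21.98 FPKM in WT and at 6.04 and 5.29 in KO (-1.88 ± 0.17). Pou3f1, which encodes OCT6, was at 22.2 in WT and at 4.05 and 4.86 in KO (-2.25 ± 0.19). Dnmt3b, the de novo methyltransferase of the epiblast, was at 128 in WT and at 38.7 and 34.9 in KO (-1.75 ± 0.11, adjusted p = 3.2e-07). In pluripotent culture Dnmt3b had been at 41.3 in WT and 37.3 and 34.3 in KO, so the KO levels in the 2 cultures covered nearly the same range and only WT stood high. Sall2, a zinc-finger factor, fell from 21.3 to 5.09 and 5.37 (-1.97 ± 0.11) and Lef1, the WNT effector, from 26.2 to 2.28 and 3.19 (-3.17 ± 0.22). Otx2, which drives the exit from naive pluripotency, was at 90.4 in WT and 50.3 and 75.2 in KO. Both KO libraries were lower, yet the difference was not called (-0.48 ± 0.18, adjusted p = 0.059). The member that rose was Etv4, an ETS factor induced by FGF, from 26.1 to 63.1 and 58.2 (1.28 ± 0.11). Fewer cells of a type and less RNA per cell cannot be told apart in these bulk libraries, here and for every marker below.

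**Figure D2:**
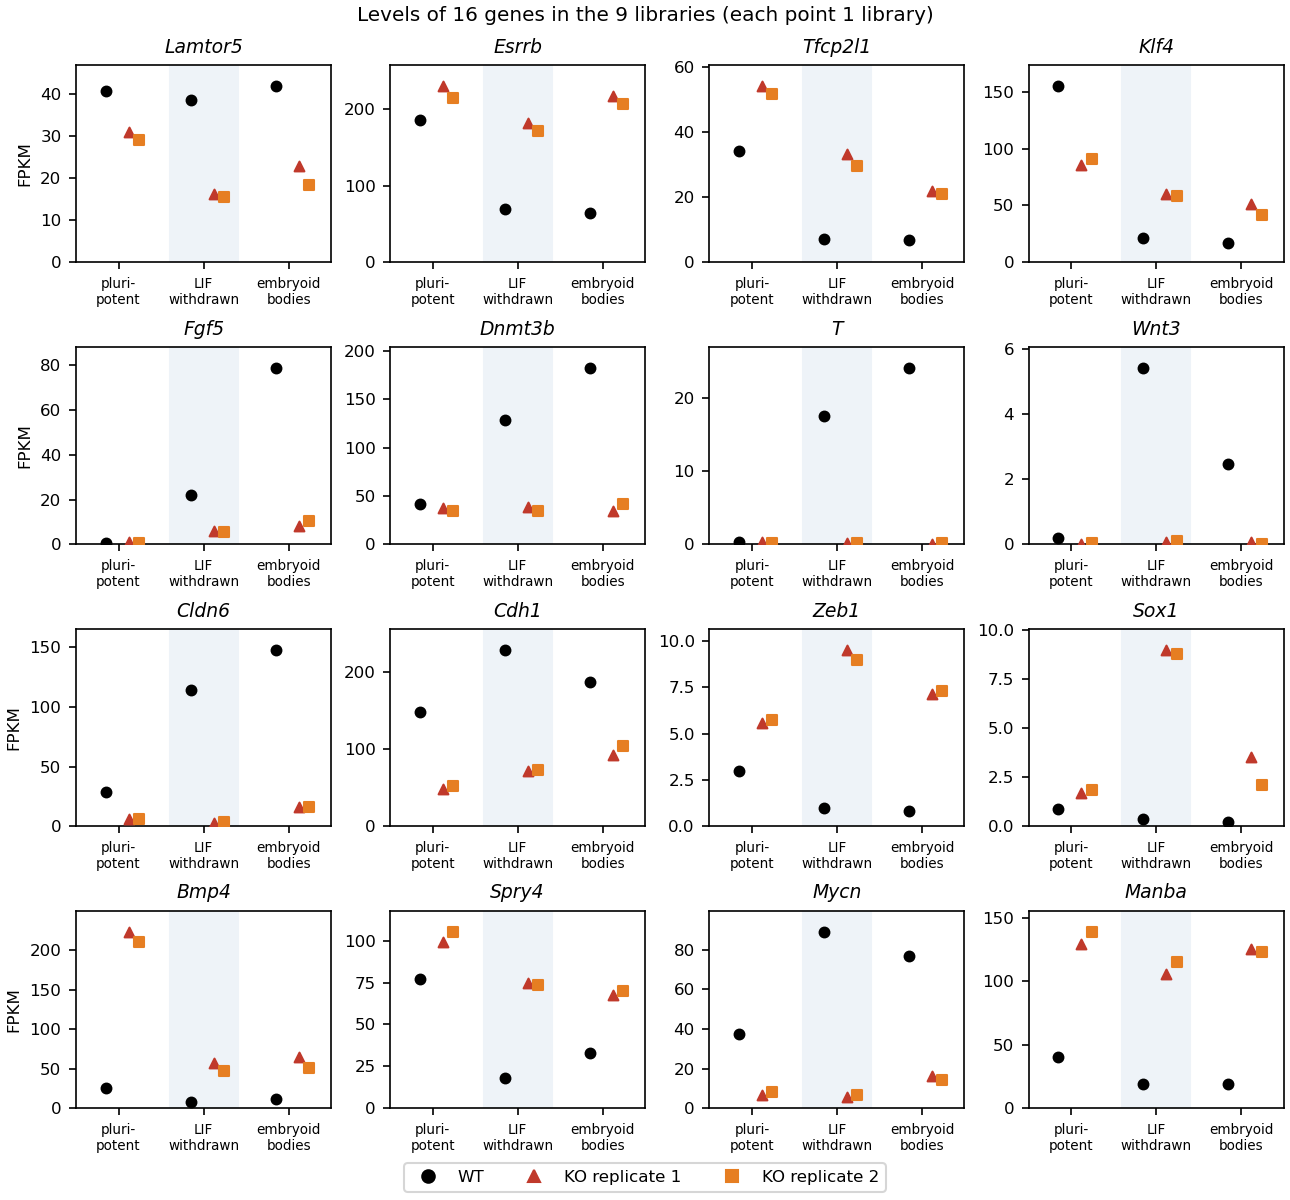
FPKM (y axis, linear, from 0) of 16 genes in each of the 9 libraries, by culture (x axis), with WT as black circles, KO replicate 1 as red triangles and KO replicate 2 as orange squares. The shaded column is LIF withdrawal, where KO lay above WT for Esrrb, Tfcp2l1, Klf4, Zeb1, Sox1, Bmp4, Spry4 and Manba and below it for the other 8 genes.

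Primitive streak and mesendoderm genes were mostly lower. Of 16 tested, 11 were lower and 1 higher, with a median of -2.53, which stayed at -2.53 with Cdx2 at its bound. The median depended on genes of low level: it was -0.63 over the 8 members with a mean of at least 2 FPKM, -0.97 in limma on log2(FPKM + 1) and -0.89 after quantile normalization. T, Wnt3, Evx1, Sp5 and Cdx2 are given above. Wnt8a, a posterior WNT ligand, fell from 10.98 FPKM to 0.43 and 0.43 (-4.59 ± 0.30), and Fgf8, an FGF of the streak, from 10.7 to 0.63 and 0.33 (-4.37 ± 0.36). These genes were low in both genotypes in pluripotent culture, where T was at 0.28 in WT and 0.28 and 0.14 in KO and Wnt8a at 0.31 in WT and 0.51 and 0.46 in KO. Not all streak genes fell so far. Eomes, chosen after its values were seen, was at 21.6 in WT and at 10.4 and 14.2 in KO (-0.75 ± 0.13). The exception in direction was Lefty2, a Nodal antagonist, which rose from 58.4 to 202 and 219 (1.91 ± 0.10, adjusted p = 1e-07).

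Sp5 is a textbook WNT target that was nearly silent in KO. Its promoter is shown because it was the only called gene of the streak and WNT lists found to hold the motif below. The stretch lies at chr2:70474793-70474851 on the plus strand of GRCm38.p6, from RefSeq, and the capitals mark a CTTTGAT match, the core that TCF and LEF factors bind.
Sp5: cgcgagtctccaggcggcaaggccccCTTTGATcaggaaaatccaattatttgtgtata
Both strands were searched in windows of 250 bases before to 50 after each start site, and 3.06% of the 10926 tested genes with a promoter sequence held this motif in at least 1 window. So did 2 of the 10 streak genes with a sequence, 1 of them called lower, and 1 of the 16 WNT genes, also called lower. As only 78.1% of tested genes had a sequence, a comparison of these shares is void. A match describes the letters and is not evidence of binding.

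Other WNT pathway genes mostly fell, with receptors on both sides. Of 27 tested, 12 were lower and 5 higher, with a median of -0.35. Among the frizzled receptors, Fzd7 rose from 34.2 FPKM to 60.4 and 59.9 (0.88 ± 0.09) and Fzd5 from 6.65 to 13.9 and 13.3 (1.10 ± 0.10). The secreted antagonists diverged, with Sfrp1 up from 7.63 to 22.8 and 23.4 (1.66 ± 0.12) and Sfrp2 down from 27.1 to 11.2 and 10.96 (-1.23 ± 0.13). Tcf7l1, the repressor that opposes naive genes, was at 37.4 in WT and 41.3 and 39.4 in KO, and the co-receptor Lrp5 at 23.3 in WT and 17.6 and 19.7 in KO; neither was called.

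In the Nodal and activin list, 5 of 20 genes were higher and 6 lower, with a median of 0.02, and the larger direction turned in 2 of the alternative settings. Fst, or follistatin, which traps activin, nearly vanished, from 7.49 FPKM to 0.16 and 0.21 (-5.30 ± 0.34). Smad3, a signal transducer, fell from 6.57 to 2.46 and 3.60 (-1.06 ± 0.19). Pcsk6, a convertase that cleaves the Nodal precursor, rose from 15 to 29.1 and 28.7 (1.01 ± 0.10), and Gdf3, a Nodal-related ligand, from 39.0 to 66.6 and 53.8 (0.69 ± 0.15). Nodal itself, chosen after its values were seen, was at 66.2 in WT and at 46.7 in each KO library (-0.44 ± 0.12).

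Bmp4 stood out among the BMP genes. It was at 7.78 FPKM in WT and at 56.6 and 46.5 in KO (2.79 ± 0.20, adjusted p = 6.9e-07). Yet the ID genes, which BMP signalling induces, were lower: Id1 went from 220 to 141 and 131 (-0.63 ± 0.11) and Id3 from 91.6 to 45.9 and 44.4 (-0.96 ± 0.11). Msx2, like Msx1 a BMP-responsive gene, fell from 8.02 to 1.99 and 2.10 (-1.92 ± 0.28). Of 19 BMP genes tested, 2 were higher and 6 lower, with a median of -0.20, or -0.31 without KO replicate 1 after LIF withdrawal. The receptor gene Bmpr1a, at 21.6 in WT and 19.5 and 21.6 in KO, was not called.

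FGF ligands and the feedback genes of ERK signalling parted. Of 26 tested, 9 were higher and 9 lower, with a median of -0.11. Among ligands, besides Fgf5 and Fgf8, Fgf15 fell from 62.6 FPKM to 16.2 and 20.2 (-1.72 ± 0.12) and Fgf17 from 14.1 to 2.38 and 2.91 (-2.35 ± 0.19), while the autocrine ligand Fgf4 was at 88.1 in WT and 78.2 and 72.8 in KO and was not called. On the feedback side, Spry4, an inhibitor of receptor tyrosine kinase signalling, rose from 18.1 to 74.6 and 73.8 (2.10 ± 0.09, adjusted p = 2.6e-08). Dusp4, an ERK phosphatase, rose from 7.54 to 44.3 and 42.2 (2.58 ± 0.20), and the ETS factor Etv1 from 4.55 to 18.7 and 19.4 (2.13 ± 0.12). Its relative Etv5, at 132 in WT and 119 and 123 in KO, was not called.

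In Notch and Hedgehog signalling, 9 of 18 genes were lower and 2 higher, with a median of -0.44. The ligand gene Jag2 fell from 17.6 FPKM to 5.47 and 6.46 (-1.50 ± 0.12) and Notch3 from 25.1 to 10.7 and 12.3 (-1.06 ± 0.09). Nrarp, a Notch-induced feedback gene, fell from 5.65 to 1.22 and 1.84 (-1.82 ± 0.24). The 2 that rose were Notch4, from 6.84 to 12.8 and 14.8 (1.07 ± 0.16), and Gli2, a Hedgehog effector, from 12.5 to 19.1 and 20.7 (0.74 ± 0.09).

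Epithelial genes were mostly lower. Of 25 keratin, claudin and adhesion genes, 19 were lower and none higher, with a median of -1.599. Cldn6, a tight-junction claudin of pluripotent and early epithelial cells, had the lowest adjusted p of the list, at 114 FPKM in WT and at 2.95 and 3.90 in KO (-4.996 ± 0.12, adjusted p = 2.9e-10). Cldn7 fell from 23.9 to 1.31 and 0.84 (-4.51 ± 0.26), and Esrp1, which directs epithelial splicing, from 23.4 to 1.23 and 0.90 (-4.39 ± 0.18). Cdh1, the gene of E-cadherin, remained expressed at 71.7 and 72.9 in KO against 229 in WT (-1.599 ± 0.09), and Cdh3, that of P-cadherin, fell from 25.1 to 2.67 and 3.94 (-2.86 ± 0.17). The keratin pair Krt8 and Krt18 fell from 45.9 to 10.5 and 9.11 (-2.17 ± 0.14) and from 37.3 to 5.56 and 6.31 (-2.59 ± 0.15). The junction scaffold gene Tjp1, at 39.8 in WT and 36.2 and 38.9 in KO, was not called. Mesenchymal genes did not move as 1 group: Zeb1, a repressor of Cdh1, rose from 1.01 to 9.50 and 8.98 (3.25 ± 0.16) and Vim, or vimentin, from 63.8 to 151 and 139 (1.25 ± 0.12), whereas Tfap2a, a neural crest and trophoblast factor, fell from 3.92 to 0.95 and 1.09 (-1.91 ± 0.24). Of the 14 neural crest and epithelial-mesenchymal transition genes tested, 4 were higher and 7 lower, and the larger direction turned in 1 of the alternative settings.

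**Figure D3:**
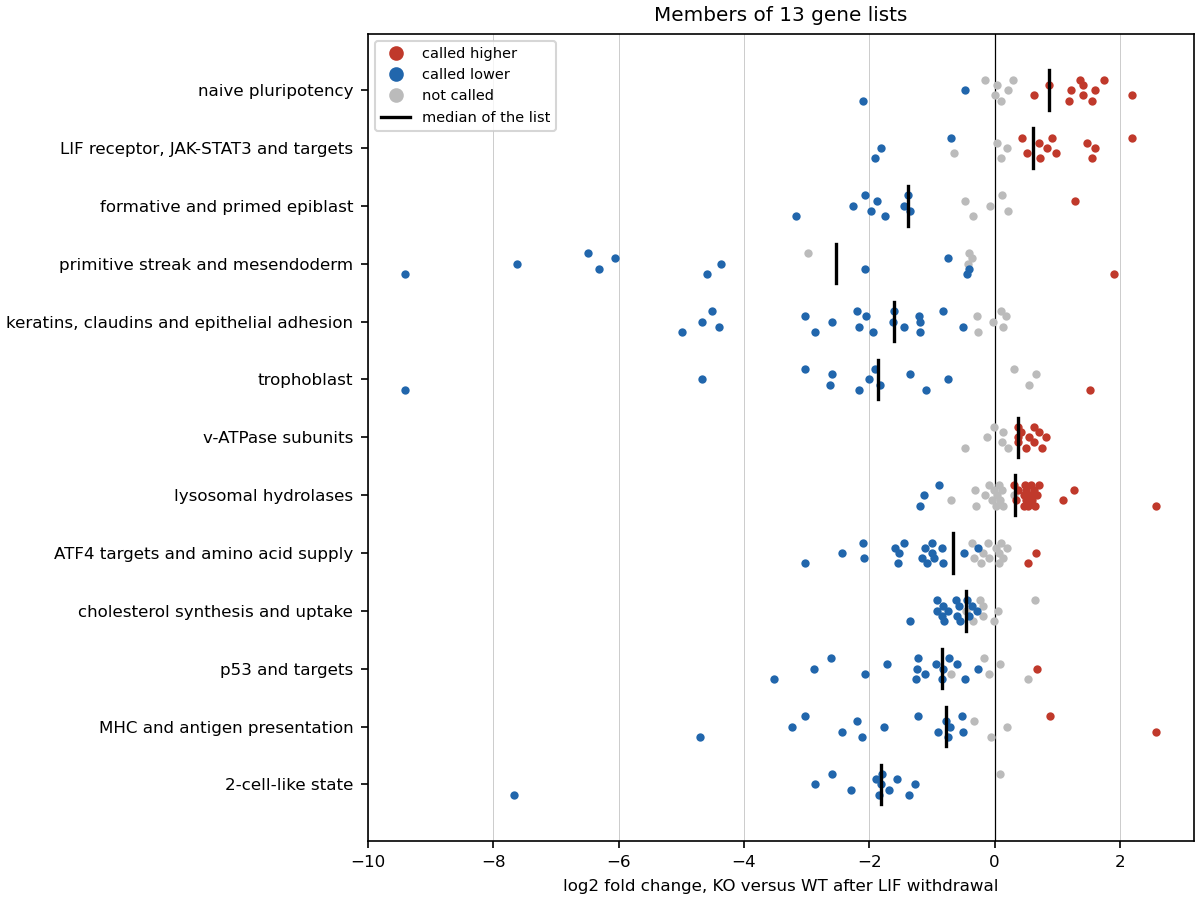
Log2 fold change, KO versus WT after LIF withdrawal (x axis), of each tested gene in 13 lists (y axis), with genes called higher in red, called lower in blue and not called in grey. The black bar is the list's median, which lies at 0.87 for naive pluripotency, -1.599 for the epithelial list and -2.53 for the primitive streak.

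Markers of differentiated lineages moved in both directions. Trophoblast genes were lower in 12 of 16 and higher in 1, with a median of -1.87, and their summed level was 171 FPKM in WT and 50.2 and 54.9 in KO; the keratins Krt8, Krt18 and Krt19 make up most of the WT sum. Extraembryonic endoderm genes were higher in 6 of 16 and lower in 3, with a median of 0.30, or 0.0065 over 24 genes with no filter on low values. Hnf4a, a visceral endoderm factor, rose from 0.58 to 5.66 and 5.69 (3.36 ± 0.21), and Apoe, an apolipoprotein, from 146 to 350 and 312 (1.24 ± 0.13), but the defining products Afp and Ttr stayed below 0.1 FPKM in all 3 libraries. In the neuroectoderm list 3 of 12 were higher and 5 lower, and the larger direction turned in 2 alternative settings. Sox1 rose as described and Stmn2, a tubulin regulator, rose from 74.8 to 215 and 200 (1.53 ± 0.10), whereas Nes, or nestin, fell from 12.8 to 1.43 and 1.6 (-3.01 ± 0.15) and Sox11 from 7.49 to 2.28 and 3.17 (-1.40 ± 0.17). Mesoderm and cardiac genes had 3 of 12 higher (25%) and 2 lower (16.7%), near the 18.4% and 17.4% over all genes. Tcf15 was up from 26.7 to 74.5 and 66.8 (1.47 ± 0.13). Blood and endothelium genes had 2 of 10 higher and 4 lower, and definitive endoderm genes 1 of 12 higher and 5 lower.

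Markers of fibroblasts or feeder cells were called in 4 of the 7 tested, 1 higher and 3 lower, and their summed level was 137 FPKM in WT and 165 and 156 in KO. Vim, at 63.8 in WT and 151 and 139 in KO, and Tagln, an actin-binding protein, at 47.9 in WT and 1.41 and 1.4 in KO, made up most of that sum. Among the other members, S100a4 was at 0 in all 3 libraries and Postn and Dcn reached at most 0.03 and 0.15. Most members had some level: of 15 listed in any library, 2 were at 0 in WT, 5 in KO replicate 1 and 3 in KO replicate 2. Of 3 immune markers tested, 1 was higher, the lysosomal glycoprotein gene Cd68, at 11.1 in WT and 26.8 and 19.2 in KO. Their summed level was 13.3 in WT and 29.9 and 22.7 in KO, Lyz2 was at 0 in all 3 libraries and Ptprc reached at most 0.04. Basement membrane genes, which endoderm and fibroblasts also express, were higher in 9 of 16 and lower in 2, with a median of 0.53, or 0.17 over 21 genes with no filter on low values. Col4a1, a collagen IV chain, rose from 13.7 to 29.3 and 30.4 (1.19 ± 0.16), Nid1 from 13.4 to 32.1 and 33.1 (1.34 ± 0.09) and the integrin gene Itga5 from 25.9 to 58.9 and 58.2 (1.24 ± 0.09), while Lamb1, a laminin chain, fell from 38.8 to 8.6 and 10.7 (-1.95 ± 0.13). The part of the extraembryonic endoderm and fibroblast markers in these changes was not tested.

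Lysosomal genes were modestly higher in KO as a group. Of 36 hydrolase genes, 19 were higher and 3 lower, with a median of 0.33, and of 20 membrane proteins and transporters, 9 were higher and 3 lower, with a median of 0.24. Of 17 genes of the v-ATPase, the proton pump that acidifies the lysosome, 11 were higher and none lower, with a median of 0.38. Manba, the gene of beta-mannosidase, changed far more than the others, from 19.3 FPKM to 105 and 115 (2.58 ± 0.10, adjusted p = 8.6e-09). Ctsa, that of cathepsin A, rose from 27.8 to 62.9 and 65.2 (1.26 ± 0.09), and Hexa, a hexosaminidase subunit, from 30.5 to 63.6 and 60.5 (1.09 ± 0.11). In each of the 3 the KO libraries lay close together and well above WT. Lamp1, the main membrane glycoprotein of lysosomes, rose from 199 to 289 and 277 (0.57 ± 0.11) and the v-ATPase subunit gene Atp6v0d1 from 113 to 190 and 173 (0.75 ± 0.09). Some hydrolases ran against the rest: Fuca1, the fucosidase gene, fell from 17.5 to 7.27 and 7.35 (-1.20 ± 0.13) and Man2b1, that of alpha-mannosidase, from 28.0 to 14.6 and 14.5 (-0.89 ± 0.09). Lamp2, at 14.3 in WT and 12.8 and 14.7 in KO, was not called.

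Autophagy genes were higher in 13 of 32 and lower in 3, with a median of 0.26. Gabarapl2, an ATG8-family protein of the autophagosome, rose from 105 FPKM to 239 and 217 (1.18 ± 0.12), and the cargo receptors Sqstm1 and Optn rose from 87.2 to 131 and 134 (0.67 ± 0.09) and from 4.40 to 9.75 and 11.5 (1.33 ± 0.17). Map1lc3a, an LC3 gene, fell from 29.3 to 15.7 and 13.6 (-0.94 ± 0.17). Of the factors that drive lysosomal genes, Tfe3 fell from 36.8 to 18.2 and 19.01 (-0.92 ± 0.09, adjusted p = 1.2e-05). Tfeb was at 4.02 in WT and at 7.16 and 6.36 in KO, a rise (0.81 ± 0.22, adjusted p = 0.014) whose call was lost without KO replicate 1 after LIF withdrawal (adjusted p = 0.067). Fnip1, a folliculin partner, rose from 9.02 to 12.8 and 14.4 (0.65 ± 0.11), and Flcn itself, at 19.1 in WT and 20.6 and 18.5 in KO, was not called. Of 27 genes of the mTOR complexes and their inputs, 7 were higher (25.9%) and 4 lower (14.8%), beside 18.4% and 17.4% over all genes, with a median of 0.09. Sesn1 rose from 9.52 to 13.6 and 13.5 (0.68 ± 0.13) and its paralogue Sesn2, both of them leucine-responsive sestrins, fell from 56.7 to 32.4 and 27.9 (-0.85 ± 0.13).

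TFEB and TFE3 recognise the palindrome TCACGTGA, and the promoters of 2 lysosomal genes that rose and hold it are shown, with the matches in capitals. The Ctsa stretch is chr2:164833734-164833793 on the plus strand and the Atp6v0d1 stretch chr8:105566035-105566094 on the minus strand of GRCm38.p6, from RefSeq.
Ctsa: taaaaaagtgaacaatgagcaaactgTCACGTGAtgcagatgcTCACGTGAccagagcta
Atp6v0d1: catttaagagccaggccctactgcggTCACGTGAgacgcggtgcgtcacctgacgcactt
Ctsa holds the motif at 2 places in this stretch. Among all tested genes with a promoter sequence, 235 of 10926 (2.15%) held it. So did 5 of the 17 lysosomal membrane genes with a sequence (29.4%), 3 of 27 hydrolase genes (11.1%) and 3 of 12 v-ATPase genes (25%), and in each list 2 of these were called higher. The shorter CACGTG, which lies inside it, was found in 11.8% of all promoters. Only 78.1% of tested genes had a promoter sequence, below the 80% set for such a check, so these shares are descriptions and a comparison of motif shares with all genes is void. A match is a description, and binding was not measured.

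Genes of the integrated stress response and amino acid supply, most of them targets of ATF4, were lower. Of 32 tested, 18 were lower and 2 higher, with a median of -0.66. Psat1, a serine synthesis enzyme, fell from 128 FPKM to 41.0 and 40.2 (-1.59 ± 0.08, adjusted p = 9.2e-08), and Phgdh, which catalyses the first step of that pathway, from 91.5 to 47.7 and 51.8 (-0.82 ± 0.09). Slc1a4, a neutral amino acid transporter, fell from 8.46 to 1.67 and 2.16 (-2.08 ± 0.19), and Chac1, a glutathione-degrading enzyme, from 8.49 to 1.48 and 1.52 (-2.44 ± 0.25). Trib3, a pseudokinase of the stress response, fell from 9.59 to 3.17 and 3.19 (-1.53 ± 0.18). In all of these both KO libraries lay far under WT. Asns, asparagine synthetase, chosen after its values were seen, went up from 136 to 203 and 208 (0.65 ± 0.08), and the cystine transporter gene Slc7a11, at 147 in WT and 160 and 163 in KO, was not called. Cytosolic tRNA synthetases, many of which ATF4 also induces, were lower in 10 of 20 and higher in 1, with a median of -0.23; Cars fell from 40.9 to 20.8 and 22.4 (-0.88 ± 0.09) and Kars, at 204 in WT and 191 and 192 in KO, was not called.

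ATF4 binds with C/EBP partners to a composite element, searched for here as TGATGNAAN on both strands. The stretches shown are those of 2 genes that fell and hold it, Slc1a4 at chr11:20332684-20332744 on the minus strand and Chac1 at chr2:119351022-119351082 on the plus strand of GRCm38.p6, with the match, on the opposite strand to the one printed, in capitals.
Slc1a4: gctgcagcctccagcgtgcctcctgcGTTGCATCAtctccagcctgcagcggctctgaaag
Chac1: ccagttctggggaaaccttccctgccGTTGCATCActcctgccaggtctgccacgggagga
Of the 27 genes of the list with a promoter sequence, 9 (33.3%) held the element, of which 6 were called lower and 1 higher. The share was 2.68% of all tested genes with a sequence, but as only 78.1% had one, a comparison is void. Most of the list was chosen as ATF4 targets, and 18 of its 32 tested genes were lower. These counts are descriptions, and binding was not measured.

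Cholesterol synthesis genes were lower in 15 of 23 and higher in none, with a median of -0.46. Dhcr7, which makes the last step to cholesterol, fell from 26.2 FPKM to 9.75 and 9.99 (-1.35 ± 0.12), and Idi1 from 54.1 to 25.9 and 29.2 (-0.91 ± 0.09). Sqle, squalene epoxidase, at 42.7 in WT and 40.5 and 44.2 in KO, and Srebf2, the transcription factor that drives the pathway, at 46.3 in WT and 37.0 and 38.5 in KO, were not called. Of 13 fatty acid synthesis genes, 3 were higher and 5 lower: Scd1, a desaturase, fell from 15.5 to 4.93 and 7.04 (-1.31 ± 0.16), while Elovl6, an elongase, rose from 46.1 to 82.2 and 70.5 (0.79 ± 0.11). Glycolysis genes had 4 of 20 higher (20%) and 3 lower (15%), near the shares over all genes, 18.4% and 17.4%. The larger direction turned in 6 alternative settings. Pdk1, which restrains pyruvate oxidation, rose from 36.2 to 65.6 and 78.2 (1.05 ± 0.13). Among hypoxia genes, 3 of 19 were higher (15.8%) and 5 lower (26.3%), also not far from the shares over all genes. Ddit4, a stress-induced inhibitor of mTORC1, fell from 129 to 12.96 and 28.2 (-2.59 ± 0.31), with the KO libraries themselves more than 2-fold apart. Of 27 nuclear respiratory chain genes, 2 were higher and none lower, with a median of 0.04, and the larger direction turned in 2 alternative settings.

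All 46 cytosolic ribosomal protein genes had log2 fold changes below 0, between -0.64 and -0.02, and 31 were called lower, with a median of -0.29. Rplp0 fell from 2388 FPKM to 1524 and 1420 (-0.64 ± 0.09) and Rplp2 from 1714 to 1100 and 1041 (-0.62 ± 0.09). These are short genes, 40 of them among the 2798 shortest genes tested, and the median over all genes of that length class was -0.08, against 0.08 in the 2798 longest. With a correction for gene length, an alternative added after seeing the data, 15 were called lower, with a median of -0.19, and in the limma fit on quantile-normalized values 10 were, with a median of -0.14.

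The 3 MYC genes diverged. Mycn, the member most tied to early embryonic cells, fell from 88.8 FPKM to 5.53 and 6.58 (-3.81 ± 0.11, adjusted p = 1.7e-09). Mycl fell from 17.0 to 5.50 and 6.83 (-1.41 ± 0.15). Myc rose from 25.7 to 63.2 and 52.0 (1.23 ± 0.13). Per gene length, Mycn was the most abundant of the 3 in WT and Myc was in KO. Of 25 nucleolar and MYC-driven genes, the MYC genes included, 2 were higher (8%) and 8 lower (32%), beside 18.4% and 17.4% over all genes. The median was small, at -0.11, and was -0.18 without KO replicate 1 after LIF withdrawal and -0.022 without KO replicate 2. Ncl, or nucleolin, was at 226 in WT and 226 and 230 in KO. Cad, the enzyme that opens pyrimidine synthesis, fell from 91.3 to 42.4 and 37.6 (-1.14 ± 0.11), and Rrn3, an RNA polymerase I factor, rose from 70.4 to 119 and 110 (0.76 ± 0.10).

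Genes of the p53 response were lower in 16 of 22 and higher in 1, with a median of -0.84. Perp, a desmosomal membrane protein, fell from 28.5 FPKM to 2.59 and 2.14 (-3.53 ± 0.20), Btg2, an antiproliferative gene, from 22.9 to 3.09 and 2.85 (-2.88 ± 0.18) and the kinase gene Plk2 from 34.5 to 6.24 and 4.52 (-2.62 ± 0.21). Bbc3, which encodes the death factor PUMA, fell from 32.6 to 10.3 and 8.65 (-1.73 ± 0.18). Cdkn1a, the p21 gene, chosen after its values were seen, fell from 48.5 to 20.6 and 19.4 (-1.22 ± 0.15). Bax, at 186 in WT and 170 and 146 in KO, was not called. The member that rose was Sesn1.

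Among 26 cell cycle genes, 10 were higher and 4 lower, with a median of 0.20, or 0.12 without KO replicate 1 after LIF withdrawal; the larger direction turned where changes of at least 2-fold were required. The cyclin D genes split by member. Ccnd1 fell from 62.7 FPKM to 12.6 and 15.6 (-2.09 ± 0.12), Ccnd2 from 6.42 to 0.33 and 0.24 (-4.42 ± 0.25), and Ccnd3 rose from 93.2 to 136 and 118 (0.51 ± 0.11). Cdkn1b, the p27 inhibitor, rose from 14.1 to 21.9 and 26.6 (0.84 ± 0.13), as did the proliferation marker Mki67, from 30.2 to 38.9 and 41.0 (0.47 ± 0.09). Pcna, at 354 in WT and 372 and 358 in KO, was not called.

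The DNA methylation genes showed opposite moves of partner proteins. Dnmt3l, the catalytically inactive cofactor of the de novo enzymes, rose from 144 FPKM to 596 and 527 (2.02 ± 0.11, adjusted p = 1.1e-07), while Dnmt3b fell as described and Dnmt3a, at 48.4 in WT and 51.0 and 56.5 in KO, was not called. Of the oxidising enzymes, Tet1 rose from 18.3 to 30.4 and 27.7 (0.73 ± 0.09) and Tet2 from 12.8 to 18.1 and 20.8 (0.67 ± 0.12). Zfp57, which keeps imprints methylated, rose from 132 to 243 and 245 (0.92 ± 0.09). In all, 6 of 12 were higher and 1 lower, with a median of 0.28. Imprinted genes went both ways, with 10 of 32 higher and 10 lower. Peg3 fell from 48.5 to 8.26 and 8.22 (-2.50 ± 0.12) and Magel2 from 6.22 to 0.69 and 0.88 (-2.92 ± 0.21), while Impact rose from 40.03 to 112 and 94.5 (1.43 ± 0.14). Mest, chosen after its values were seen, was at 3.60 in WT and at 42.7 and 25.6 in KO (3.33 ± 0.42).

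Genes of the 2-cell-like state, which a small share of ESCs enters at any time, were lower in 12 of 13, with a median of -1.82. Zscan4f, the family member with the highest level, was at 66.8 FPKM in WT and at 15.6 and 20.1 in KO (-1.84 ± 0.19), and Usp17le at 7.72 in WT and at 0.86 and 1.19 in KO (-2.87 ± 0.30). The Zscan4, Tcstv and Usp17l genes have near-identical copies whose reads may be shared, so their separate values are uncertain. All 5 Zscan4 genes tested were called lower, but such calls are not independent, and the count of 12 includes them. Eif1a, at 68.2 in WT and 67.3 and 71.3 in KO, was not called. Germline genes had 4 of 16 higher and 6 lower. Stra8, the retinoic acid-induced gate to meiosis, rose from 4.50 to 40.5 and 45.1 (3.31 ± 0.31) and Rhox5 from 7 to 43.7 and 28.8 (2.43 ± 0.39), while Ddx4, the vasa helicase, fell from 17.9 to 6.84 and 8.59 (-1.14 ± 0.15).

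Antigen presentation genes were lower in 14 of 19 and higher in 2, with a median of -0.78. Tap1, a peptide transporter, fell from 10.02 FPKM to 0.91 and 1.13 (-3.24 ± 0.19), the immunoproteasome gene Psmb9 from 6.97 to 1.78 and 1.29 (-2.11 ± 0.37), and Nlrc5, the transactivator of class I genes, from 1.79 to 0.17 and 0.25 (-3.02 ± 0.29). B2m, the invariant class I chain, was at 45.0 in WT and 42.4 and 40.5 in KO and was not called. Those that rose were H2-M5 and H2-Eb1, a class II chain that went from 1.76 to 10.9 and 9.31 (2.58 ± 0.27). Class I genes resemble one another closely, and reads may be shared between them. Of 5 Y-linked genes tested, 4 were higher and none lower, with a median of 0.94. Ddx3y rose from 12.7 to 21.8 and 24.7 (0.94 ± 0.10), and Eif2s3y, at 46.7 in WT and 36.9 and 45.5 in KO, was not called.

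**Figure D4:**
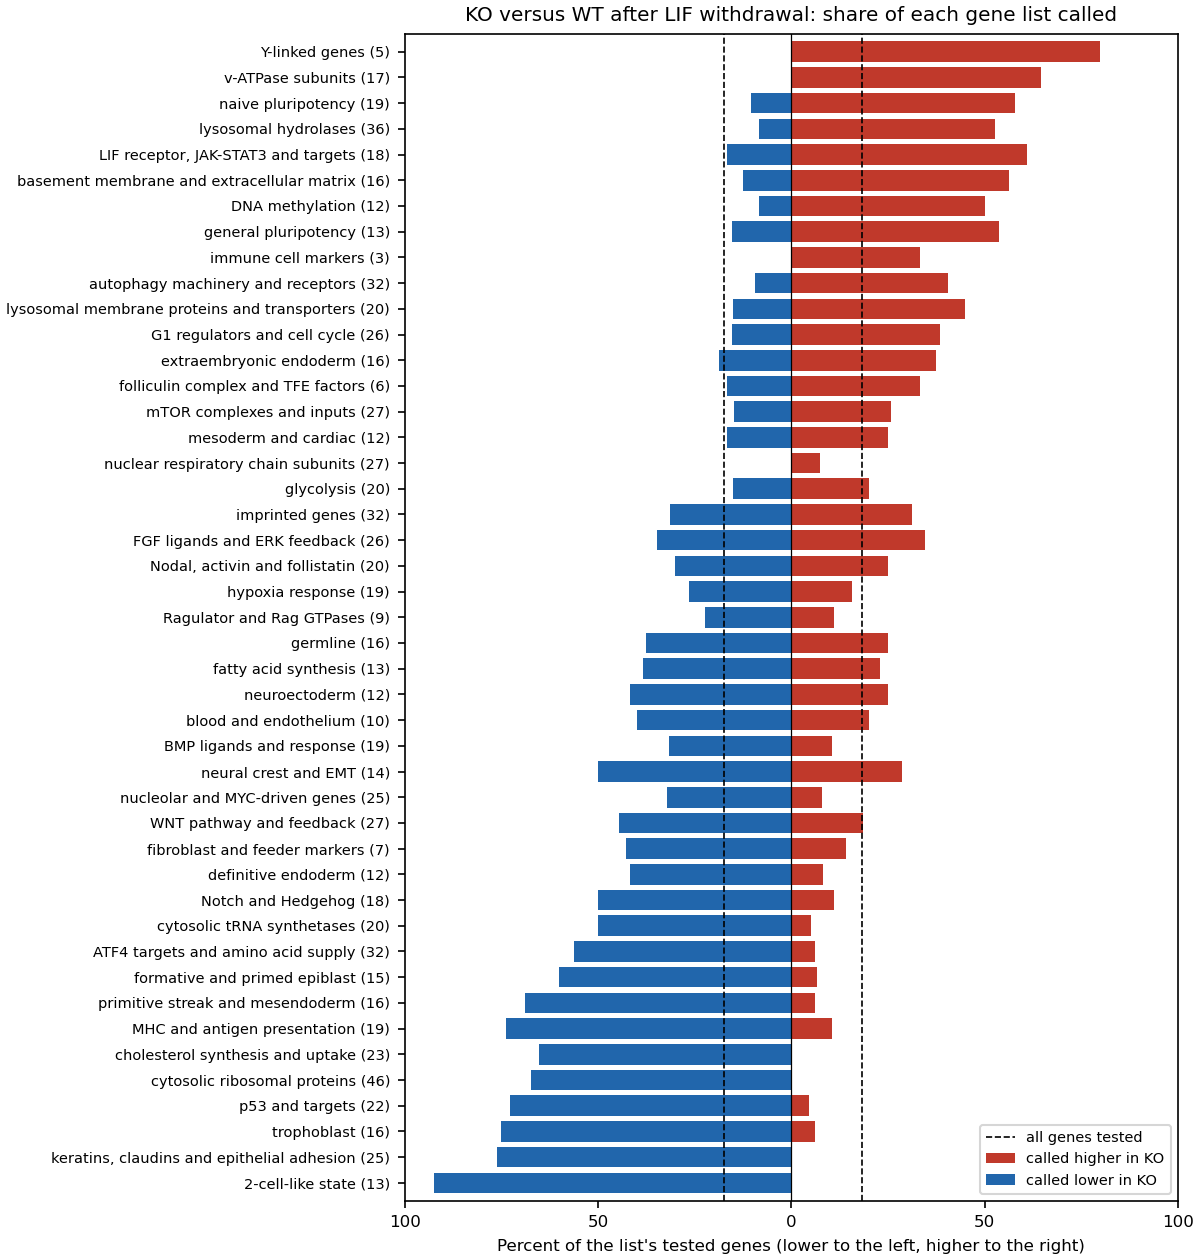
Percent of each list's tested genes called higher (red, to the right) and lower (blue, to the left) in KO after LIF withdrawal, for 45 lists, with the number tested in brackets. Dashed lines give the share of all tested genes, 18.4% higher and 17.4% lower; the v-ATPase and naive pluripotency lists pass the right line and the epithelial and 2-cell-like lists the left one.

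The response after LIF withdrawal was then set beside those in the other cultures, which used separate WT and KO libraries. In pluripotent culture 7248 genes (51.8%) were called in KO, 3574 higher (25.5%) and 3674 lower (26.3%). In embryoid bodies 5201 (37.2%) were called, 2719 higher (19.4%) and 2482 lower (17.7%). Of the 2569 genes higher after LIF withdrawal, 1764 were also higher in embryoid bodies, which is 68.7% of the first set and 64.9% of the second, and 20 were lower there. With pluripotent culture the shared genes numbered 1358, which is 52.9% and 38.0% of the sets, and 373 were lower there. Among the 2441 genes lower after LIF withdrawal, 1466 were lower in embryoid bodies (60.1% and 59.1%) and 1324 in pluripotent culture (54.2% and 36.0%), with 32 and 302 higher in those cultures.

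Tested directly, the KO response after LIF withdrawal differed from that in pluripotent culture in 4524 genes (32.3%), 2445 with the higher difference after LIF withdrawal (17.5%) and 2079 with the lower (14.9%). It differed from that in embryoid bodies in 478 (3.42%), 184 higher (1.32%) and 294 lower (2.1%). That second count was sensitive to 1 library: without KO replicate 1 of the embryoid bodies it was 166, without KO replicate 2 of the embryoid bodies 203 and without KO replicate 1 of LIF withdrawal 305. Of the 2569 genes called higher after LIF withdrawal, among 13990 tested, 39 had a higher difference there than in both other cultures by these tests. Of the 2441 called lower, 75 had a lower difference than in both. The call and both tests share the LIF withdrawal libraries, the lone WT library among them, so they are not independent. These counts therefore do not establish genes particular to LIF withdrawal.

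Naive genes show the contrast with pluripotent culture, where 8 were higher and 8 lower, with a median of -0.13. Embryoid bodies shared the rise, with 17 of the 19 higher, 1 lower and a median of 1.06. In 12 of the 19 the difference between KO and WT was higher after LIF withdrawal than in pluripotent culture, and in 1, Klf2, it was lower. Klf4 was below WT in pluripotent KO cells, at 85.6 and 90.5 FPKM against 155 (-0.69), and above it after LIF withdrawal, and the 2 differences themselves differed. Klf5 and Itga5 did the same, at -0.42 and -0.25 in pluripotent culture, and so did Tet1, at -0.41. In the opposite sense, Junb was at 62.3 and 62.2 in pluripotent KO cells against 32.8 in WT (1.05), and Krt8 at 40.8 and 34.4 against 14.4 (1.51), while both were below WT after LIF withdrawal. Id1, too, was above WT in pluripotent KO cells (0.96) and below it after LIF withdrawal. The epithelial list that holds Krt8 was mostly lower in every culture. In pluripotent culture 17 of 25 were lower and 4 higher, with a median of -1.36. In embryoid bodies 17 were lower and 1 higher, with a median of -1.33. All 46 ribosomal protein genes but 5 differed, with no gene called lower in pluripotent culture, where 33 were higher and the median was 0.42; gene length moved with this, since the median of the 2798 shortest genes was 0.27 there.

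The lysosomal lists had medians above 0 in every culture, of unequal size. The v-ATPase median was 0.38 after LIF withdrawal, against 0.86 in pluripotent cells and 0.45 in embryoid bodies. Hexa was at 129 and 117 FPKM in pluripotent KO cells against 10.3 in WT (3.70), more than after LIF withdrawal by the test of the difference, whereas Manba (1.85 in pluripotent culture) was raised more after LIF withdrawal. ATF4 target genes had a median of -0.95 in pluripotent culture and 0.02 in embryoid bodies. Psat1 differed from both cultures, at -2.03 in pluripotent culture and -0.87 in embryoid bodies. Chac1, at -2.42 in pluripotent culture, did not differ from that by the test, but differed from embryoid bodies, where it was low in every library, at 1.53 in WT and 1.24 and 1.44 in KO.

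Several signalling genes responded more strongly after LIF withdrawal than in embryoid bodies. Spry4 was up by 1.05 in embryoid bodies, Dusp4 by 0.86 and Etv1 by 1.11, each less than after LIF withdrawal by the test of the difference. Fzd7, Pim1, Etv4 and Socs2 were not called in embryoid bodies and differed there. Mycn, at -2.33 in embryoid bodies, and Cldn6, at -3.19, fell further after LIF withdrawal. Fst went the other way, at 29.8 FPKM in WT embryoid bodies and 0.15 and 0 in KO, a deeper fall than after LIF withdrawal. Fgf5 was likewise lower by more in embryoid bodies (-3.08), where WT reached 78.8. The fall of streak genes was shared by embryoid bodies, where 13 of 16 were lower and 2 higher, with a median of -4.85. By the test of the difference, 1 streak gene had the higher and 1 the lower difference after LIF withdrawal.

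**Figure D5:**
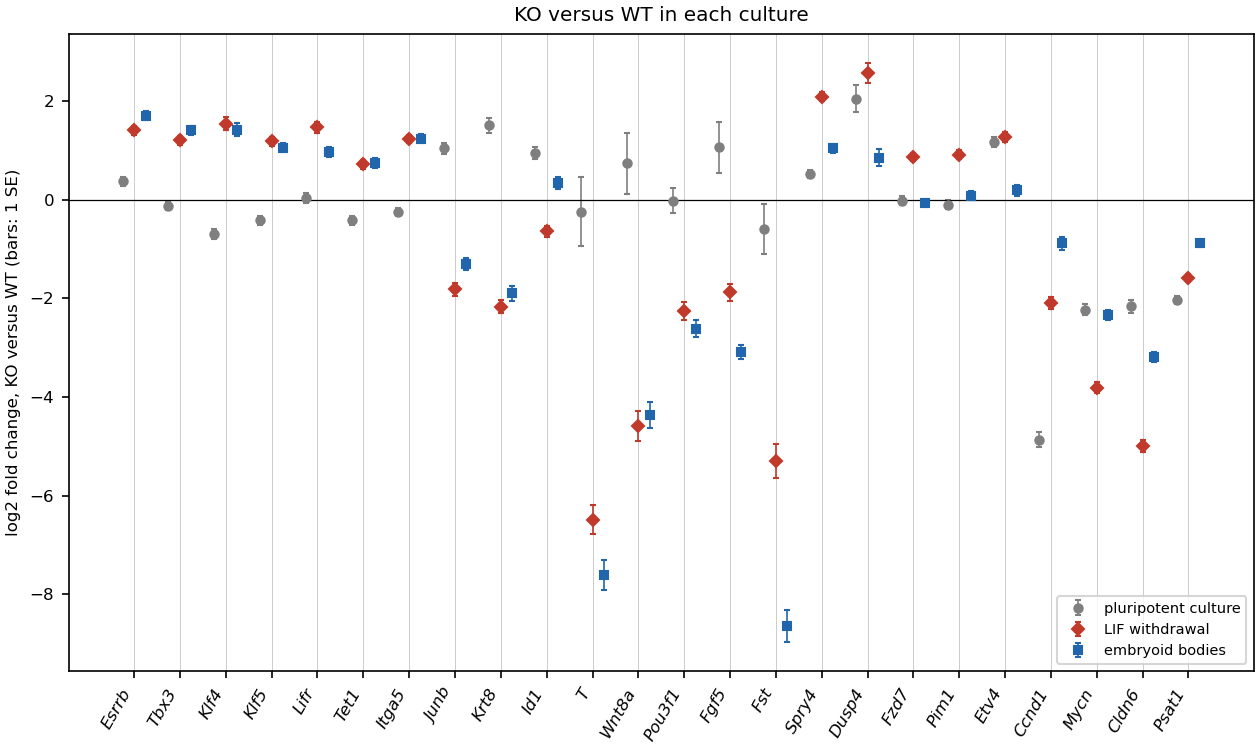
Log2 fold change of KO over WT, with bars of 1 SE, for 24 genes (x axis) with grey circles for pluripotent culture, red diamonds for LIF withdrawal and blue squares for embryoid bodies. Klf4, Klf5, Tet1 and Itga5 lie below 0 in pluripotent culture and above it after LIF withdrawal; Junb, Krt8 and Id1 do the reverse.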

How the data were processed

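RNA-seq tables of 9 libraries were used. The submitters' processing notes name the aligner Bowtie2 and the mouse build mm8. The quantifier, strandedness and annotation are not given in the sources used here, so overlapping and antisense genes cannot be told apart. Per the file headers, each deposited table gives an expected count (an estimated count), a gene length in bases and an FPKM value per gene. FPKM was computed by the authors. A gene that a table does not list counts as 0.

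Expected counts were rounded. Of 20287 gene IDs, 20234 were matched by ID and 9 by accession to RefSeq names, and 44 kept their ID. Genes averaging 0.5 FPKM or more across the 9 libraries entered the test in edgeR 4.0.16 (R 4.3.3): TMM, a mean for each of 6 groups, 3 residual degrees of freedom, common biological coefficient of variation 6.52%, the quasi-likelihood test and Benjamini-Hochberg adjustment. The SE, obtained by dividing the fold change (log2) by the root of F, is not a fitted error and understates counting error in low genes. Genes with a count of 0 in a genotype are given against 3 counts over the group, those with 1 to 3 counts by a 95% exact interval; both cover counting error only. In depth, 3 counts equal 0.276 to 0.282 CPM in the LIF withdrawal libraries. The KO pair differed by more than counting noise (chi-square per degree of freedom 4.62). The test kept its libraries separate, but the count ratios, intervals and bounds pooled their counts and leave this excess out.

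Named genes were Hbxip, the 14 largest rises and falls among genes averaging 1 FPKM or more in the 3 libraries (clone, predicted and RIKEN names left out, here and between cultures), up to 6 called and 2 uncalled members of each list, and, for each test between cultures, 6 genes per direction. The comparison, the 45 lists and these rules were chosen with earlier results of these data known. Alternatives used DESeq2 1.42.0, limma 3.58.1 on log2(FPKM + 1) or log2(FPKM + 0.1), other filters and scalings, a replicate block and fits without each KO library. The scripts were tested on simulated data. Promoter windows are RefSeq's on GRCm38.p6, matched by gene; coordinates are of that build, not of mm8.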

Additional observations from a re-analysis of the deposited data

Results flagged for a closer look

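The difference between KO and WT after LIF withdrawal was itself tested against that in each other culture, in edgeR with p-values adjusted over all genes, and the 6 widest gaps in each direction are given here as log2 differences, LIF withdrawal minus the other culture. Where a genotype has no count in a culture, the fitted value depends on the prior count and is no measure of size.

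Against pluripotent culture, the gap was -9.52 ± 1.53 for Fgf8 (adjusted p = 0.00069), which in pluripotent culture was listed at 0 FPKM in WT and at 0.17 and 0.50 in KO. It was -8.61 ± 0.86 for Rsc1a1 (adjusted p = 3.1e-05), which was at 4.31 FPKM in pluripotent WT and at 22.9 and 18.3 in KO, and -7.37 for Cdx2, -8.77 for Actc1, -10.32 for Mir5113 and -9.78 for Fthl17-ps1 (adjusted p = 0.038, 0.046, 0.024 and 0.043), of which Mir5113 had only 3 counts in WT after LIF withdrawal and Fthl17-ps1 belongs to a family of close copies. In the other direction the gap was 4.79 ± 0.46 for Stra8 (adjusted p = 2.5e-05), which was at 9.53 FPKM in pluripotent WT and at 1.80 and 4.49 in KO. For Foxr2, at 1.61 in pluripotent WT and 0 in both KO libraries, it was 8.45 ± 1.03, and for Nhs, at 1.46 in pluripotent WT and 0.02 and 0.05 in KO, it was 5.57 ± 0.59. Neither Foxr2 nor Nhs was called after LIF withdrawal. The gaps of Col8a2, Ptpn5 and Mir8114 were 4.89, 4.17 and 9.47.

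Against embryoid bodies, Car2, a carbonic anhydrase gene, had the lowest adjusted p of the 12, with a gap of 2.28 ± 0.15 (adjusted p = 4.6e-05). It was at 405 FPKM in WT embryoid bodies and at 60.3 and 60.8 in KO, but at 130 in WT and 95.2 and 85.4 in KO after LIF withdrawal. The gap was 3.35 for Fst, 2.75 for Sema6a, 2.29 for Snora73a, 1.92 for Arhgef26 and 1.87 for Car3. On the other side, Tagln had a gap of -3.49 ± 0.37 (adjusted p = 0.00089): it was at 47.9 FPKM in WT after LIF withdrawal and at 3.86 in WT embryoid bodies, with all KO libraries of both cultures between 1.05 and 1.61. Wnt6 had a gap of -3.55 ± 0.48, at 3.32 in WT and 1.93 and 1.34 in KO after LIF withdrawal but 0.42 in WT and 2.73 and 2.42 in KO embryoid bodies. The gaps of Acsm4, Ly6g6d, Rsc1a1 and Rem2 were -6.37, -5.96, -5.41 and -4.29.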

How the results depend on the processing

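DESeq2 called 2853 genes after LIF withdrawal in place of 5010, of which 2851 were among the 5010, and 4796 in pluripotent culture, 2904 in embryoid bodies, 2377 and 234 for the tests against those cultures. The test against embryoid bodies, 478 genes, was the least stable: limma called 116 on log2(FPKM + 1), 71 on log2(FPKM + 0.1) (19 higher, 52 lower) and 141 after quantile normalization. Leaving out 1 KO library gave 166 to 565 genes there and 4266 to 4927 after LIF withdrawal. Of the genes in any list, each counted once, 418 to 459 were then called, against 457. Requiring at least 2-fold left 1804 genes, 207 of them in a list, and lowered the share of called-higher promoters with TCACGTGA from 3.06% to 1.09%. Other list medians moved as well. In limma on log2(FPKM + 1) the trophoblast median was -1.10, the lysosomal membrane and autophagy medians both 0.14; with a mean FPKM of at least 2 the ATF4 median was -0.40 and the FGF median -0.002, and with no filter the WNT median was -0.63. Whether KO replicate numbers pair the libraries across cultures is not settled. The correlation of KO replicate 1 minus 2 was 0.25 between pluripotent culture and LIF withdrawal. It was 0.063 between pluripotent culture and embryoid bodies and 0.099 between LIF withdrawal and embryoid bodies. With the replicate number as a block, 5789 genes were called after LIF withdrawal and 1154 in the test against embryoid bodies. Each of these results kept within 1.5 times its count under the other alternatives run. Of 269 named genes called after LIF withdrawal, 240 kept that call in every setting that tests them and none reversed. For single genes, the differences between cultures were not followed through these settings. With 1 WT library, no setting can show how much WT cultures vary, and at these depths genes with few counts were not resolved.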
